A study of Mus musculus with 4 samples.

Results

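The mature miRNAs mmu-miR-210-3p and mmu-miR-34a-5p, known as markers of low oxygen and of p53 activity, were followed here across 4T1 and 4TO7, a pair of related mouse mammary carcinoma lines. The members were found by name among 1908 mature miRNAs listed on the sense strand in the series' miRNA tables, and both members were listed in every library. They were chosen by measured values, namely levels that differ between the lines in opposite directions, so the line difference is given below as a description and not as a test. The series holds 1 library for each of 4 groups, namely extracellular vesicles (EVs, membrane-bound particles shed by cells) of 4T1, EVs of 4TO7, 4T1 cells and 4TO7 cells. Per the labels, both lines were grown in DMEM with serum cleared of EVs, and no low-oxygen or DNA-damage treatment is named for any group. EVs were spun out by ultracentrifugation, and RNA of miRNA size was cut from a gel for sequencing. With 1 library per group there is no replicate error, and every interval below is a 95% interval that covers counting error only.

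MiRNAs are short RNAs cut from a hairpin precursor, and bases 2 to 8 of the mature strand, the seed, select the messenger RNAs to be repressed. MiR-210 is switched on by hypoxia-inducible factors when oxygen is low and is known for lowering mitochondrial respiration through the iron-sulfur scaffold protein ISCU. MiR-34a is a direct transcriptional target of p53 that represses cell-cycle and survival genes such as Cdk6, Bcl2 and Met, and in many carcinomas it is reduced. In breast tumours, miR-210 is often raised where oxygen is poor.

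The mature strands and their partner arms from the same hairpin are shown first because the counting rests on them. Sequences and positions are from RefSeq on GRCm38.p6, written 5′ to 3′ with the seed in capitals.
miR-210-3p: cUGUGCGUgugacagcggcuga
miR-210-5p: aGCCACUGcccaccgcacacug
miR-34a-5p: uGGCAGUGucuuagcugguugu
miR-34a-3p: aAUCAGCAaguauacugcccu
No other of the 1679 mature sequences in the RefSeq table carried the seed of miR-210-3p, whereas 3 others carried that of miR-34a-5p. The table has no mature miR-34c-5p, a miR-34 family member, so its seed was not compared. These are shown because they would be read as the same family in a target search.
miR-34b-5p: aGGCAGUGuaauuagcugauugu
miR-449a-5p: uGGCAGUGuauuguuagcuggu
miR-449c-5p: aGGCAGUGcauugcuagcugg
Over any stretch of 18 nt, 0 of the 1678 other mature sequences came within 2 mismatches of miR-210-3p or of miR-34a-5p, nor did any antisense strand. Reads that long, aligned with at most 1 mismatch, therefore cannot match both a member and another sequence of that table.

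The hairpins show where each arm sits, with both mature strands in capitals.
Mir210: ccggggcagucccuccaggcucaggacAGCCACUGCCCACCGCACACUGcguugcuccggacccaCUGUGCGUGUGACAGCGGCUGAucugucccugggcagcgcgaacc
Mir34a: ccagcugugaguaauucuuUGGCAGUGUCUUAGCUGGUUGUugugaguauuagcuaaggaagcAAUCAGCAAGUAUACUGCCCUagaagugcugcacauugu
The Mir210 hairpin lies on the minus strand at chr7:141221384-141221493, and its 3p arm at chr7:141221407-141221428. GENCODE M21 annotates no second gene over it. The Mir34a hairpin lies on the plus strand at chr4:150068454-150068555, with its 5p arm at chr4:150068473-150068494. The 3′ end of that hairpin overlaps the start of Gm37795, a gene model of type TEC, on the same strand.

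Few reads carried these miRNAs, and most of the precision comes from the cell libraries. Sense alignments of 18 nt or more to mature miRNAs numbered 57962 (4T1 EV), 51697 (4TO7 EV), 603186 (4T1 cells) and 177647 (4TO7 cells), and levels are given as RPM, the reads per 1000000 of these totals. A read that matches several mature miRNAs is counted under each, and distinct miRNA reads numbered 43783 (4T1 EV), 32564 (4TO7 EV), 419516 (4T1 cells) and 122560 (4TO7 cells), or 1.32 to 1.59 alignments per read. A count of 0 limits a miRNA to 3 reads, a floor of 51.8 RPM for 4T1 EV, 58.0 RPM for 4TO7 EV, 4.97 RPM for 4T1 cells and 16.9 RPM for 4TO7 cells. Genome-aligned reads numbered between 5171514 in 4TO7 EV and 13505699 in 4T1 cells. The 6 epithelial marker miRNAs summed to 6502 RPM for 4T1 cells, where only miR-205-5p had 0 reads, and to 236 RPM for 4TO7 cells. In the 4TO7 cells miR-205-5p had 41 reads and miR-200b-3p had 1, while the defining markers miR-200a-3p, miR-200c-3p, miR-141-3p and miR-429-3p had 0. Their part in the members' line difference was not tested.

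Reads of miR-210-3p numbered 5 for 4T1 EV, 3 for 4TO7 EV, 29 for 4T1 cells and 121 for 4TO7 cells. Its level was 86.3 RPM (28.01 to 201) for 4T1 EV, 58.0 RPM (12.0 to 170) for 4TO7 EV, 48.1 RPM (32.2 to 69.0) for 4T1 cells and 681 RPM (565 to 814) for 4TO7 cells. The 4TO7 cells stood above the other libraries, whose intervals overlapped each other. In bulk RNA, fewer cells that carry a miRNA and less of it per cell cannot be told apart. By rank among detected miRNAs it held place 239 of 560 for 4T1 cells, against place 90 of 441 for 4TO7 cells.

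Reads of miR-34a-5p numbered 1 for 4T1 EV, 0 for 4TO7 EV, 207 for 4T1 cells and 4 for 4TO7 cells. Its level was 17.3 RPM (0.437 to 96.1) for 4T1 EV. For 4TO7 EV the floor allows 58.0 RPM, and the exact interval reaches 71.4 RPM. In cells its level was 343 RPM (298 to 393) for 4T1 and 22.5 RPM (6.14 to 57.7) for 4TO7. Here 4T1 cells stood above the other libraries, and the remaining levels overlapped within counting error. Its rank was 124 of 560 for 4T1 cells, against 274 of 441 for 4TO7 cells.

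**Figure D1:**
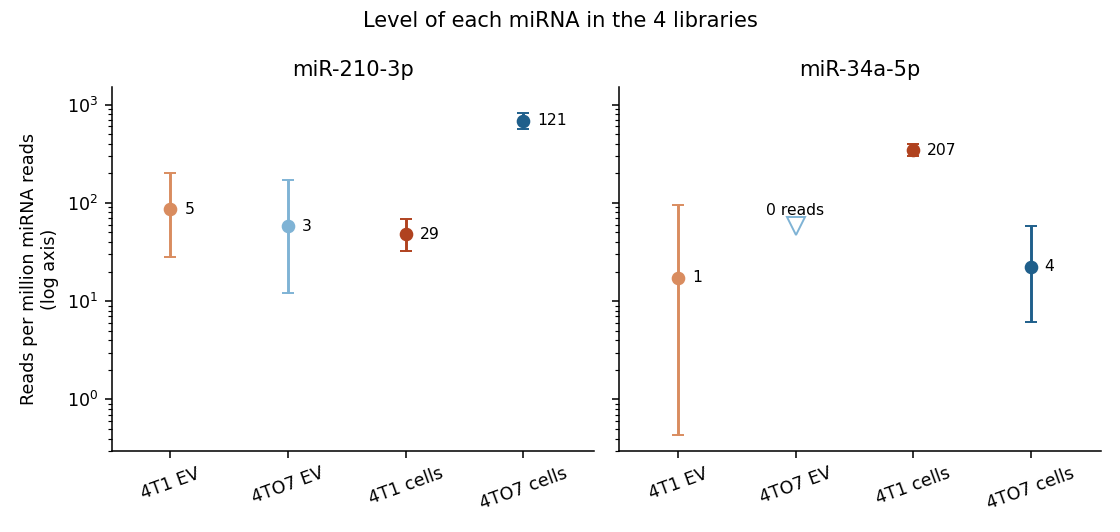
Level of each miRNA (RPM of miRNA reads, log axis) in the 4 libraries, with exact Poisson 95% intervals and read numbers beside the points; the open triangle marks the 58.0 RPM that 0 reads allow. MiR-210-3p is highest in 4TO7 cells at 681 RPM and miR-34a-5p in 4T1 cells at 343 RPM.

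Between the cell libraries, miR-210-3p was lower in 4T1 by 14.2-fold (9.38 to 22.04), a log2 ratio of -3.81. Calls were made for miRNAs that reached 50 reads in either library and whose exact interval lay wholly past 2-fold, and 5.29% of 208 compared miRNAs were called lower in 4T1 cells. MiR-210-3p had the lowest ratio of the 208 compared, next to miR-152-3p (log2 -3.67). That place depends on the setting. It was place 6 from the lowest with a minimum of 10 reads and 15 with no minimum beyond 1 read. With reads of 16 nt or more, or of 21 nt or more, it was place 2. MiR-205-5p, under the minimum of 50 with 0 reads against 41, had a lower ratio (log2 -8.14). MiR-34a-5p was higher in 4T1 cells by 15.2-fold (5.86 to 56.5), a log2 ratio of 3.76, and 13.5% of compared miRNAs were called higher (18.8% either way). It stood in place 11 from the top, below 6 arms of the miR-200 family and below miR-10b-5p, miR-10a-5p, miR-206-3p and miR-146a-5p. The values of both members chose them, so nothing further is read from these places.

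**Figure D2:**
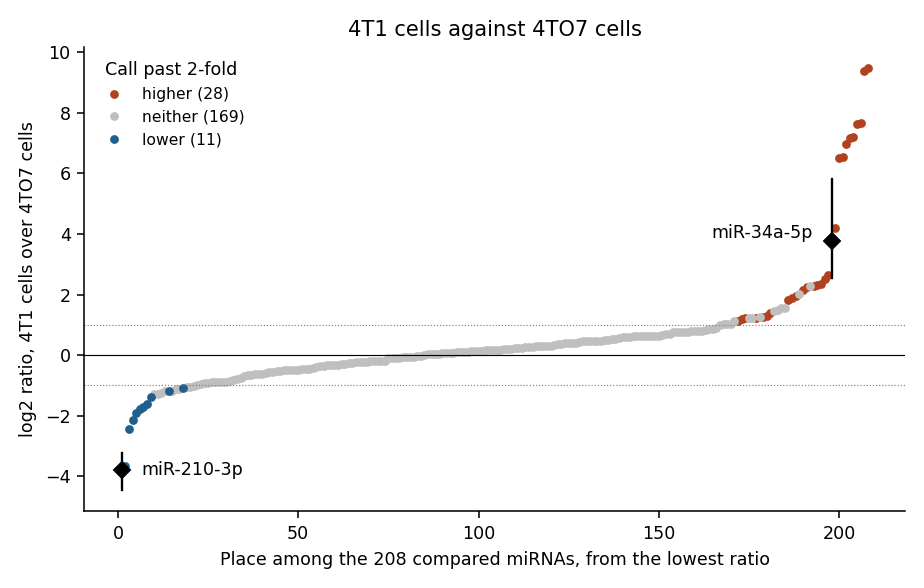
Log2 ratio of 4T1 cells over 4TO7 cells (vertical axis) for the 208 compared miRNAs in order of ratio (horizontal axis), coloured by call, with 28 higher, 169 neither and 11 lower; dotted lines mark 2-fold. Black diamonds with exact 95% intervals mark miR-210-3p, at the lowest place, and miR-34a-5p, at place 11 from the top.

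The denominator changed the size of these ratios. Dividing by genome-aligned reads in place of miRNA reads raised the median log2 ratio of all compared miRNAs by 1.503, to 1.68. Per 1000000 genome-aligned reads, miR-210-3p had 2.15 reads for 4T1 cells, against 10.7 for 4TO7 cells, a ratio of 0.200 (0.129 to 0.302). MiR-34a-5p had 15.3 reads on that scale for 4T1 cells, against 0.355 for 4TO7 cells, a ratio of 43.2 (16.6 to 160.04). Calls over all miRNAs were 28 higher and 11 lower per miRNA read, 134 higher and 2 lower per genome-aligned read, and 23 higher and 15 lower with median-of-ratios scaling. The 2 lower calls per genome-aligned read were miR-210-3p and miR-152-3p.

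Setting the members against each other inside a library needs no denominator. The 4T1 cells held 0.140 reads of miR-210-3p per read of miR-34a-5p, and the 4TO7 cells held 30.3. The conditional odds ratio of 4T1 over 4TO7 cells was 0.00477 (0.00119 to 0.0139). Because the members were chosen for opposite line differences, its direction is built in, and it is a description. MiR-210-3p made up 12.3% of the pair's 236 reads from 4T1 cells, against 96.8% of 125 reads from 4TO7 cells.

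In cells, the aligned reads of both miRNAs were almost wholly the annotated strand. Reads running past its 3′ end could not align, so longer forms are missing from the shares below. All 29 miR-210-3p reads of 4T1 cells ran from base 1 to base 22 (100%, exact interval 88.1% to 100%), as did 114 of 121 in 4TO7 cells (94.2%, 88.4% to 97.6%). The other 7 reads of 4TO7 cells were 4 of 20 nt and 1 of 21 nt from base 1, and 2 of 21 nt from base 2. MiR-34a-5p had 196 of 207 reads over its 22 bases in 4T1 cells (94.7%, 90.7% to 97.3%), with 6 of 21 nt, 3 of 20 nt and 1 of 19 nt from base 1 and 1 of 21 nt from base 2. All 4 of its reads in 4TO7 cells were full length. Reads that began at base 1, and so kept the seed at its annotated place, were 119 of 121 for miR-210-3p in 4TO7 cells and 206 of 207 for miR-34a-5p in 4T1 cells.

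In EVs, miR-210-3p was also read in shorter forms. Of the 5 reads counted for its level in 4T1 EV, 3 were full length and 2 were of 19 nt from base 1, while all 3 in 4TO7 EV were full length. A further form is the 16 nt read from base 1, printed here because it falls short of the 18 nt counted for the level.
16 nt form: cugugcgugugacagc
Of sense reads of 14 nt or more, this form was 3 of 8 for 4T1 EV (37.5%, exact interval 8.52% to 75.5%) and 2 of 5 for 4TO7 EV (40%, 5.27% to 85.3%). The cells had 0 of 30 for 4T1, where the exact interval reaches 11.6%, and 0 of 121 for 4TO7, where it reaches 3.00%. Over all mature miRNAs, this form was 41.3% for 4T1 EV and 22.2% for 4TO7 EV, against 0.542% for 4T1 cells and 1.04% for 4TO7 cells. Both EV intervals for miR-210-3p include the share over all miRNAs, so no difference from miRNAs in general was detectable. MiR-34a-5p had 1 read of 14 nt or more in EVs, in 4T1, and it was full length.

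**Figure D3:**
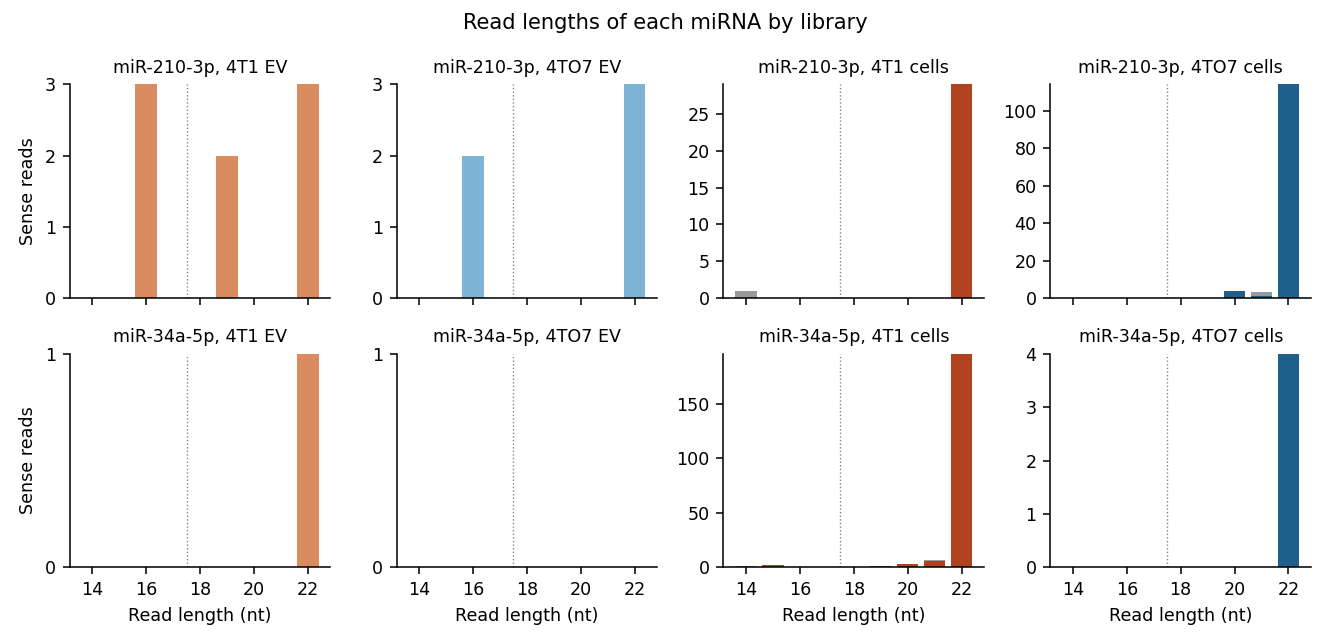
Sense reads (vertical axis, scaled per panel) of miR-210-3p and miR-34a-5p by read length from 14 to 22 nt (horizontal axis) in each library, coloured where they begin at base 1 and grey where they begin later; the dotted line marks the 18 nt minimum. In cells both miRNAs peak at 22 nt, the longest length that could align. MiR-210-3p in EVs also has 3 reads of 16 nt and 2 of 19 nt in 4T1 and 2 of 16 nt in 4TO7.

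EVs were next set against their cells of origin. MiR-34a-5p was lower in 4T1 EV than in 4T1 cells by 19.9-fold, with 1 read against 207 and a wide interval of 3.53 to 789. At the cell level, 19.9 reads would have stood in the 4T1 EV library. Of 208 compared miRNAs, 40.4% were called either way and 29.8% were called lower in 4T1 EV, so this call was a common one. MiR-34a-5p reached the minimum for a call only through 4T1 cells, whose level entered its choice. The fold and call of miR-34a-5p are therefore a description. For 4TO7, 0 reads in EVs stood against 4 in cells, where the cell level would have given 1.16 reads, so a difference was not detectable at this depth.

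MiR-210-3p was lower in 4TO7 EV than in 4TO7 cells by 11.7-fold (3.92 to 57.7), with 3 reads against 121, where the cell level would have given 35.2. Of 131 compared miRNAs, 55% were called either way and 38.2% were called lower in 4TO7 EV, where miR-210-3p held place 16 from the lowest. It reached the minimum of 50 reads only through 4TO7 cells, whose level entered its choice. The fold, call and place of miR-210-3p are therefore a description. In 4T1, the ratio of EVs over cells was 1.79 (0.542 to 4.69), with 5 reads against 29, under the minimum of 50 for a call. Per genome-aligned read it was 0.305 (0.0923 to 0.798), so the side of 1 on which it fell depended on the denominator. In the 4T1 comparison, all miRNAs gave 22 higher and 62 lower calls per miRNA read, 5 and 178 per genome-aligned read, and 31 and 35 with median-of-ratios scaling. In the 4TO7 comparison these were 22 and 50, 13 and 68, and 26 and 36.

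The EV libraries also differed from cells in read length and in markers of other tissues. The shortest counted reads, of 18 nt, took up 29.7% of the miRNA reads of 4T1 EV and 17.8% of those of 4TO7 EV, against 1.08% for 4T1 cells and 1.29% for 4TO7 cells. The liver miRNA miR-122-5p had 160 reads for 4T1 EV and 1092 for 4TO7 EV, against 1 for each cell library. Blood-cell markers had reads for 3 of 6 miRNAs in any library and summed to 69.0 RPM for 4T1 EV and 251 RPM for 4TO7 EV, against 1.66 for 4T1 cells and 5.63 for 4TO7 cells. MiR-451a of red cells had 2 reads for 4T1 EV and 9 for 4TO7 EV, against 0 for both cell libraries, and miR-142-5p had 2 for 4T1 EV and 4 for 4TO7 EV, against 0 for 4T1 cells and 1 for 4TO7 cells. MiR-223-3p, miR-144-3p and miR-142-3p were at 0 in all 4 libraries. In reads of 18 nt or more, the muscle miRNA miR-206-3p had 56 for 4T1 EV, 154 for 4T1 cells and 0 in both 4TO7 libraries. MiR-1a-3p and miR-133a-3p had 5 such EV reads or fewer and 0 in cells. With every listed length on both strands counted, miR-206-3p had 518 reads for 4T1 EV and 326 for 4TO7 EV. The cells had 320 for 4T1 and 137 for 4TO7. In the same order miR-1a-3p had 480, 361, 56 and 43, and miR-133a-3p had 5, 14, 131 and 36. The part of read length or of these markers in the members' EV levels was not tested.

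Between the EV libraries no line difference could be read for either member. The 5 reads of miR-210-3p for 4T1 EV against 3 for 4TO7 EV gave a ratio of 1.49 (0.289 to 9.57), and miR-34a-5p had 1 read against 0, both under the floor. Of 82 compared miRNAs, 41.5% were called either way, and neither member reached the minimum of 50 reads. Per 1000000 genome-aligned reads, miR-210-3p had 0.656 reads for 4T1 EV, against 0.580 for 4TO7 EV.

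The partner arms had few reads or none. MiR-210-5p had 1 read from 4T1 cells, against 5 from 4TO7 cells, all of 22 nt from base 1, and 0 from both EV libraries. Its ratio of 4T1 over 4TO7 cells was 0.0589 (0.00125 to 0.526), beside 0.0706 (0.0454 to 0.107) for miR-210-3p, and with 6 reads it was under the minimum for a call. MiR-34a-3p had 0 reads of 18 nt or more in all 4 libraries, which limits it to 4.97 RPM for 4T1 cells, where the 5p arm stood at 343 RPM.

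Of the 3 miRNAs found in the RefSeq table to share the seed of miR-34a-5p, only miR-449a-5p had reads of 18 nt or more. It is encoded in a separate cluster known from multiciliated epithelia. Its reads numbered 1 for 4T1 EV, 2 for 4TO7 EV, 6 for 4T1 cells and 18 for 4TO7 cells. Its cell level was 9.95 RPM (3.65 to 21.7) for 4T1, against 101 RPM (60.1 to 160.1) for 4TO7, and these intervals did not overlap. The ratio of 4T1 over 4TO7 cells was 0.0982 (0.0319 to 0.258), under the minimum of 50 reads for a call. Only 3 of 6 reads in 4T1 cells and 7 of 18 in 4TO7 cells were full length, and the most common form in 4TO7 cells was 21 nt, with 10 reads. In 4TO7 cells this miRNA had 18 reads beside the 4 of miR-34a-5p. MiR-34b-5p and miR-449c-5p, and the p53-linked arms miR-34b-3p, miR-34c-5p and miR-34c-3p, had 0 such reads in every library.

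Other miRNAs linked to low oxygen were called in both directions or not at all. The list of 17, miR-210-3p included, held 13 compared miRNAs between the cell libraries, of which 4 were higher in 4T1 cells, 2 lower and 7 neither, against 13.5% higher and 5.29% lower over all compared miRNAs. The median log2 ratio was 0.09 with miR-210-3p and 0.19 without it, on either side of the 0.17 over all. The higher members were miR-181b-5p (log2 2.25), miR-155-5p (2.16), miR-181a-5p (1.89) and miR-27a-3p (1.21). MiR-155-5p, an inflammation-linked miRNA that hypoxia-inducible factor also raises, had 403 reads from 4T1 cells, against 26 from 4TO7 cells. The lower members were miR-210-3p itself, chosen for its value, and miR-322-5p. MiR-322-5p, the mouse form of miR-424, had 136 reads from 4T1 cells against 131 from 4TO7 cells (log2 -1.71). Of those called neither, the most read were miR-103-3p (log2 -0.22), miR-107-3p (-0.22), miR-24-3p (0.09) and miR-23a-3p (0.31). Per genome-aligned read, 9 of the 13 were higher, beside 64.4% of all compared miRNAs, and miR-210-3p was the lone one lower. Between EVs 9 members were compared, with miR-24-3p (log2 1.92) and miR-27a-3p (1.31) higher in 4T1 EV and miR-26a-5p (-2.35) and miR-181a-5p (-1.42) lower, against 24.4% higher and 17.1% lower over 82 compared miRNAs. Over all miRNAs these were 20 higher and 14 lower calls, 11 and 18 per genome-aligned read, 12 and 16 with TMM factors, and 15 and 15 with median-of-ratios scaling.

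Among 14 p53-linked miRNAs, reads of 18 nt or more were found for 9 and 5 could be compared between the cell libraries. Of these, miR-34a-5p itself, chosen for its value, was called higher in 4T1 cells and the other 4 were neither, beside 13.5% called higher over all compared miRNAs. The median log2 ratio was -0.22 with miR-34a-5p and -0.27 without it, beside 0.17 over all. MiR-16-5p, whose processing p53 is known to promote, had 1609 reads from 4T1 cells against 273 from 4TO7 cells (log2 0.79). MiR-192-5p, also induced by p53, had 63 against 23 (log2 -0.33) and miR-15a-5p had 64 against 36 (log2 -0.94). MiR-107-3p had 10121 against 3462 (log2 -0.22). Per genome-aligned read 3 of the 5 were higher, beside 64.4% of all compared miRNAs, none was lower, and the median was 1.29 beside 1.68 over all. MiR-107-3p stands in both lists and differs from miR-103-3p by so little that they share reads. In EVs miR-107-3p was the single member that could be compared between the lines, and it was called neither, with a log2 ratio of -0.17.

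**Figure D4:**
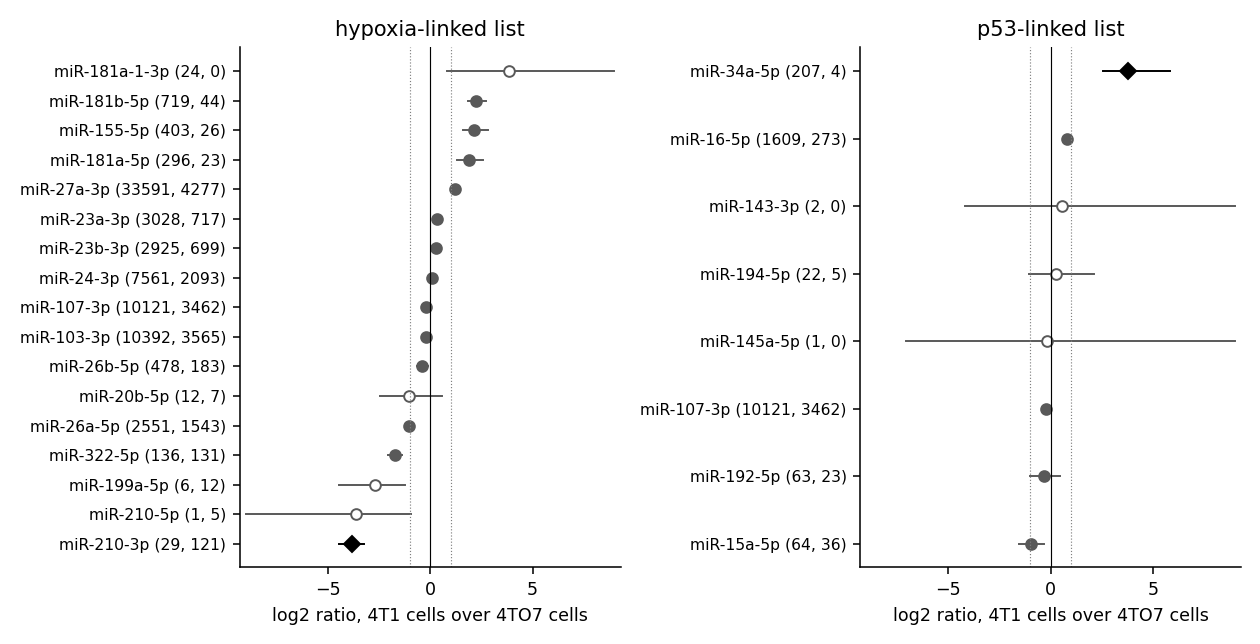
Log2 ratio of 4T1 cells over 4TO7 cells with exact 95% intervals for the hypoxia-linked and p53-linked miRNAs with any read in cells, with reads in 4T1 cells and 4TO7 cells in parentheses; open symbols had under 50 reads in both libraries, diamonds mark the members, and lines are clipped at the panel edge. MiR-210-3p lies at the bottom of its list at -3.81 and miR-34a-5p at the top of its list at 3.76.

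The miRNAs whose pattern over the 4 libraries was most like each member were found by distance, after subtracting each miRNA's own mean log2 RPM with 0.5 reads added. Among 209 candidates, those nearest to miR-210-3p were miR-466f-3p at a distance of 1.56, miR-6240 at 1.74, miR-542-3p at 1.83, miR-872-5p at 2.01 and miR-221-3p at 2.12. The cell ratio is part of this distance, so a shared direction is built in. As an example, miR-542-3p had 2 reads for 4T1 EV, 3 for 4TO7 EV, 80 for 4T1 cells and 129 for 4TO7 cells. The nearest to miR-34a-5p were miR-335-3p at 1.496, miR-3081-3p at 1.61, miR-181c-3p at 1.77, miR-877-3p at 1.91 and miR-466k at 1.96. MiR-335-3p, the closest, had 0 reads in both EV libraries, 107 from 4T1 cells and 5 from 4TO7 cells. The EV part of either member's pattern rests on 5 reads or fewer per library.

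Reads shorter than 18 nt were left out of these levels, and they bear on miR-34a-5p. With all listed lengths counted, its log2 ratio of 4T1 over 4TO7 cells was 0.62, or 1.54-fold (1.36 to 1.75), and it was no longer called. Most of its short sense reads were 1 form of 10 nt over bases 12 to 21, with 821 of 982 for 4T1 cells and 284 of 325 for 4TO7 cells, shown in capitals within the strand.
miR-34a-5p: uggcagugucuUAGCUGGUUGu
The antisense entry of miR-133b-3p, which holds the reverse complement of these bases, had the same 821 and 284 reads, and that of miR-582-5p, with 1 mismatch, had 820 and 284. In the EV libraries, miR-34a-5p and the antisense miR-133b-3p entry again had equal numbers, with 1 read for 4T1 EV and 3 for 4TO7 EV. Reads of this form cannot be told apart between the entries.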

How the data were processed

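Small RNA was sequenced from EVs and cells of 4T1 and 4TO7, with 1 library for each of 4 groups, grouped by the labels' titles. Cutadapt, Bowtie, bedtools and build mm9 are named, per the submitters' processing notes, and versions are not given in the sources used here. Per the alignment logs that the authors deposited, Bowtie allowed 1 mismatch and listed up to 10 matches per read among mature miRNAs. Each deposited miRNA table gives raw counts, one for every combination of miRNA, strand, start and length, from 10 nt upwards. Reads running past the annotated 3′ end could not align. The deposited cluster tables were not used.

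From these counts, sense alignments of 18 nt or more were summed per miRNA, and their total was the library size, so a read that matches several miRNAs counts more than once. Distinct reads were run as an alternative, chosen after seeing the data. A ratio of RPM has an exact conditional binomial (Clopper-Pearson) 95% interval, a level an exact Poisson one, and log2 ratios had 0.5 reads added. Calls needed 50 reads in at least 1 library and an interval wholly past 2-fold. They compare libraries and not conditions, and no p-value is given. Reads lacking molecular identifiers need not be independent molecules, so intervals and floors (3 reads) cover counting error only. TMM factors came from edgeR 4.0.16 and median-of-ratios factors from DESeq2 1.42.0, over all 4 libraries. Intervals used scipy 1.17.1. The members, lists and naming rule were chosen with earlier results of these data known. Named miRNAs were the members, their partner arms, seed sharers, the 5 nearest patterns of each and, in the lists, called members or the up to 4 with the most reads. The miR-142a arms were matched under their older names, miR-142-3p and miR-142-5p.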

Additional observations from a re-analysis of the deposited data

Results flagged for a closer look

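The ratio of EVs over cells for miR-210-3p was compared between the lines. It is a description, since the difference between 4T1 and 4TO7 cells, for which this miRNA was chosen, enters it. The EV/cell ratio was 1.79 in 4T1 and 0.0852 in 4TO7, and the conditional ratio of 4T1 over 4TO7 was 20.7 (exact 95% interval 3.78 to 141). The line ratio of 4T1 over 4TO7 was 1.49 (0.289 to 9.57) in EVs and 0.0706 in cells, so most of this difference is that of the cells. It rests on 5 reads for 4T1 EV and 3 for 4TO7 EV, and its interval leaves out 1. Per genome-aligned read the ratios were 0.305 in 4T1 and 0.0541 in 4TO7, and the ratio between them was 5.55 (1.02 to 37.8), no longer wholly past 2-fold. With 1 library per group, the difference has no replicate check.

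Reads of 10 nt listed under miR-34a-5p at base 12 lie outside the reads counted for its level and numbered 821 for 4T1 cells and 284 for 4TO7 cells. The antisense miR-133b-3p entry listed equal numbers.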

How the results depend on the processing

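The opposite line differences in cells kept their direction under all 11 alternatives run for each member, and miR-210-3p stayed called under each, with log2 ratios between -3.96 and -2.30. Not all of these could change a call. Adding 5 reads alters the log2 ratio but not the interval. Counting both strands, or only reads that begin within 1 nt of the 5′ end, left the members' cell reads unchanged and moved only the library totals. MiR-34a-5p stayed called under 10, between 2.79 and 5.27, and lost its call (0.62) with all listed lengths, where short reads were added. That setting also took the call of miR-210-3p in 4TO7 EV over cells (-1.38) and gave one to miR-34a-5p in 4TO7 EV over cells (-3.15). Reads of 21 nt or more took the call of miR-34a-5p in 4T1 EV over cells (-2.76), since the library totals changed while its EV read stayed 1. MiR-210-3p in 4T1 EV over cells, never called, was at 0.96 and moved to -1.60 with genome-aligned reads. The log2 change of the miR-210-3p to miR-34a-5p ratio in 4T1 EV over cells was 4.69, and it lost its call with reads of 20 nt or more (4.03) and 21 nt or more (4.01), which left 3 EV reads of miR-210-3p. The 4T1 cell reads that enter this change also entered the choice of the members, so it is a description. Between the cell libraries, the log2 change of the members' ratio was -7.57 and stayed called, but the choice of the members builds in its direction. The log2 difference of the EV/cell ratio of miR-210-3p between the lines, 4.29, was chosen after seeing the data and lost its call with reads of 20 nt or more (3.97), all lengths (2.17) and genome-aligned reads (2.39).

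Calls over all miRNAs numbered 39 between cells, 34 between EVs, 84 for 4T1 EV over cells and 72 for 4TO7 EV over cells. With all lengths they were 154, 82, 669 and 334. Genome-aligned reads gave 136 between cells and 183 for 4T1 EV over cells, reads of 16 nt or more gave 133 for 4T1 EV over cells, and reads of 21 nt or more gave 21 between EVs. No paired analysis was possible because each group had 1 library. Depth limits the EV results: both members together had 6 reads for 4T1 EV and 3 for 4TO7 EV.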
